A study of Homo sapiens with 6 samples.

Results

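The genes described here encode microtubule-associated proteins other than tau, together with the doublecortin pair that binds microtubules in young neurons. They are MAP1A, MAP1B, MAP2, MAP4, MAP6, MAP7, MAP9, DCX and DCLK1, 9 of the 20037 protein-coding genes of the GRCh38.p14 gene table on the chromosomes 1 to 22, X and Y. They were chosen by name, with earlier results of these data known. Every peak that overlapped a gene's interval, extended by 10 kb on both sides, was assigned to that gene, which gave 186 of 78694 H3K27ac peaks and 31 of 43677 CTCF peaks. The peaks come from chromatin immunoprecipitation followed by sequencing (ChIP-seq) in neurons. These were differentiated with a BrainPhys protocol from progenitors of the cell line KOLF2.1J, a widely used line of human induced pluripotent stem cells. The series is about how MAPT, the gene for tau, is regulated. Of the 6 libraries, 2 were made with a CTCF antibody and 2 with an H3K27ac antibody, and 2 were inputs without antibody. All came from untreated cells of this 1 line, and each antibody's deposited list covers both of its replicates. No spread between replicates could therefore be estimated, no p-value is given, and the read depth behind each value is unknown.

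Microtubule-associated proteins bind along the microtubule lattice, where they stabilise it, bundle it or recruit motors. In neurons MAP2 is the classic protein of dendrites and cell bodies, tau is the classic protein of axons, and MAP1B and doublecortin are known for their abundance in growing neurons. H3K27ac, acetylation of lysine 27 on histone H3, marks promoters and enhancers in use. CTCF binds a long DNA motif and helps to anchor loops of chromatin.

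The labelled cell type was compared with marker genes. An H3K27ac peak lay in the windows of 8 of 8 neuron markers and 6 of 6 neural progenitor markers. It lay in those of 3 of 4 astrocyte, 4 of 4 oligodendrocyte, 3 of 4 pluripotency and 2 of 4 liver and muscle markers. These windows include neighbouring genes, and 76.9% of all protein-coding gene windows held an H3K27ac peak. Within 1 kb of an annotated start, a peak was present at 4 of 5 neuron markers, 5 of 5 progenitor markers and 1 of 2 astrocyte markers for which a start was available. The numbers were 0 of 2 for oligodendrocyte, 1 of 2 for pluripotency and 0 of 2 for liver and muscle markers, and 66.7% of protein-coding genes with a strand had such a peak. With so few markers, these counts do not identify the cell type. Among the non-neuronal markers, NANOG, ALB, ACTA1 and AQP4 had no H3K27ac peak in their windows, but the window of GFAP reached a fold enrichment of 62.8, the highest of all the markers, and that of MYH7 reached 20.4. The median highest value over the markers with a peak was 14.5 for neurons, 37 for progenitors, 20 for astrocytes, 12.5 for liver and muscle, 7.63 for pluripotency and 6.01 for oligodendrocytes. Progenitor markers carried H3K27ac alongside neuron markers. Among the astrocyte markers the values were split: GFAP (62.8) and S100B (20) were high, ALDH1L1 reached only 4.39, and AQP4 had no peak. The part of other cell types in the values below was not tested.

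Promoter sequences are shown for 7 of the genes because their base composition and their peaks differed. Each runs 5′ to 3′ on the gene's strand over the 250 bases before an annotated start, from RefSeq on GRCh38.p14. The start is the outermost one, except for MAP2, whose outermost start was not in the sequence table. MAP6 was not in that table at all, and DCLK1, which was in it, is not shown. The intervals are chr5:72107225-72107474 on the plus strand for MAP1B, chr3:48088849-48089098 on the minus strand for MAP4, chr2:209579082-209579331 on the plus strand for MAP2 and chrX:111412193-111412442 on the minus strand for DCX. They are chr15:43510704-43510953 on the plus strand for MAP1A, chr4:155376966-155377215 on the minus strand for MAP9 and chr6:136550423-136550672 on the minus strand for MAP7. Capitals mark motif matches on either strand: the GC box GGGCGG, the TATA box TATAAA, the E-box CAGATG and, in MAP7, a loose form of the CTCF core motif in which 1 more base is free.
MAP1B: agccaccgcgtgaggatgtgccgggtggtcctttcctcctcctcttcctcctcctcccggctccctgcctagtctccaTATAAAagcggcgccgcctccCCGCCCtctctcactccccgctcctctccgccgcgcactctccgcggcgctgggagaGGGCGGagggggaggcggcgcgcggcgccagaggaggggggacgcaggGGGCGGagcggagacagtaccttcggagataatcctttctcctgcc
MAP4: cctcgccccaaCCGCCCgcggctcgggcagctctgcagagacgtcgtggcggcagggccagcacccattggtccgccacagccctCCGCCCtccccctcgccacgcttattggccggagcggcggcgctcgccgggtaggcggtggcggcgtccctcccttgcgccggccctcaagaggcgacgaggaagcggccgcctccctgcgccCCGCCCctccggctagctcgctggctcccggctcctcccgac
MAP2: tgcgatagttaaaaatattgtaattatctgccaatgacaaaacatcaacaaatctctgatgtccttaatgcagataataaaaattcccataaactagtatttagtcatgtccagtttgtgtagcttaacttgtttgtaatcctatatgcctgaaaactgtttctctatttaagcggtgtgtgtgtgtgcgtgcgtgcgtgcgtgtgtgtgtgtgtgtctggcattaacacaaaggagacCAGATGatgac
DCX: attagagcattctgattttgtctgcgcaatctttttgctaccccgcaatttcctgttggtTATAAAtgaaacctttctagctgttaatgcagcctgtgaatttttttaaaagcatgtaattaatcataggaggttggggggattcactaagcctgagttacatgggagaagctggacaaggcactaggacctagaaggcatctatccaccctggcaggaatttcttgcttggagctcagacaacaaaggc
MAP1A: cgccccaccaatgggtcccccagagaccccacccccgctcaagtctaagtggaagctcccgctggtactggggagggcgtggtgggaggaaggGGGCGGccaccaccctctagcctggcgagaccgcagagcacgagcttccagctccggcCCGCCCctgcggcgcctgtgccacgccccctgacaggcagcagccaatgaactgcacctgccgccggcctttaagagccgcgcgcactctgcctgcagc
MAP9: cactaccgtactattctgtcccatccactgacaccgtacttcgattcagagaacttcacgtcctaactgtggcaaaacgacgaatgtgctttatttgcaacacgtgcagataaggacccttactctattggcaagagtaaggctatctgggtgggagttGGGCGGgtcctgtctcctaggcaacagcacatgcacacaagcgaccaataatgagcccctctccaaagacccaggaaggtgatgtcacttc
MAP7: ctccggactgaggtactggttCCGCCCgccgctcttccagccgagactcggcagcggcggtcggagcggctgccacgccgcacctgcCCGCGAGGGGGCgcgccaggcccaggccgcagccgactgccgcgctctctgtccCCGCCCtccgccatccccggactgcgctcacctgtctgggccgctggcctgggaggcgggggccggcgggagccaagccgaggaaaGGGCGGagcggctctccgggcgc
The matches do not overlap one another in these 7 sequences. Over the 300 bases that also include 50 after the start, a GC box was found in 56.3% of the 22199 promoters of protein-coding genes in the table. A TATA box was found in 9.47%, this E-box in 12.2%, and the loose CTCF form in 12.4%. The CTCF core motif with that base fixed occurs in 2.52%, the cAMP response element TGACGTCA in 2.26%, and TTCAGCACC, the left part of the REST element, in 0.351%. None of these last 3 was matched at the 20 starts of the 8 genes in the table. The loose form contains the stricter one and was added after these sequences had been seen.

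H3K27ac was listed at all 9 genes, and its height differed widely among them. At least 1 H3K27ac peak lay in 76.9% of protein-coding gene windows, and in 87.3% of the 10851 windows at least as long as that of MAP1A, the shortest of the 9. The highest fold enrichment per gene was 57.3 in MAP1B, 45.9 in MAP4, 35.9 in MAP2 and 33.6 in MAP6. It was 21.6 in MAP1A, 21.2 in DCX, 15.97 in DCLK1, 10.7 in MAP9 and 5.96 in MAP7. The median of these 9 values was 21.6, and the median over all protein-coding genes with a peak was 16.9. The MAP1A value, which sets the median of the 9, came from a peak that ended before the gene and overlapped the neighbouring TP53BP1. Inside MAP1A the highest value was 11.3, at percentile 83.3. In the list as a whole, MAP1B and MAP4 stood at percentiles 99.6 and 99.1, MAP2, MAP6, MAP1A and DCX lay between percentiles 93.5 and 97.9, and DCLK1, MAP9 and MAP7 lay at percentiles 89.6, 82.1 and 63.1. Here a percentile is the share of peaks in the same list with a lower value. A peak in the highest 10% of the list lay in 6 of the 9 windows, all but those of MAP7, MAP9 and DCLK1, and in 39.7% of all protein-coding gene windows. In the MAP1A window it was the peak that overlapped TP53BP1. The 39.7% was not matched for window length, and longer windows can hold more peaks.

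**Figure D1:**
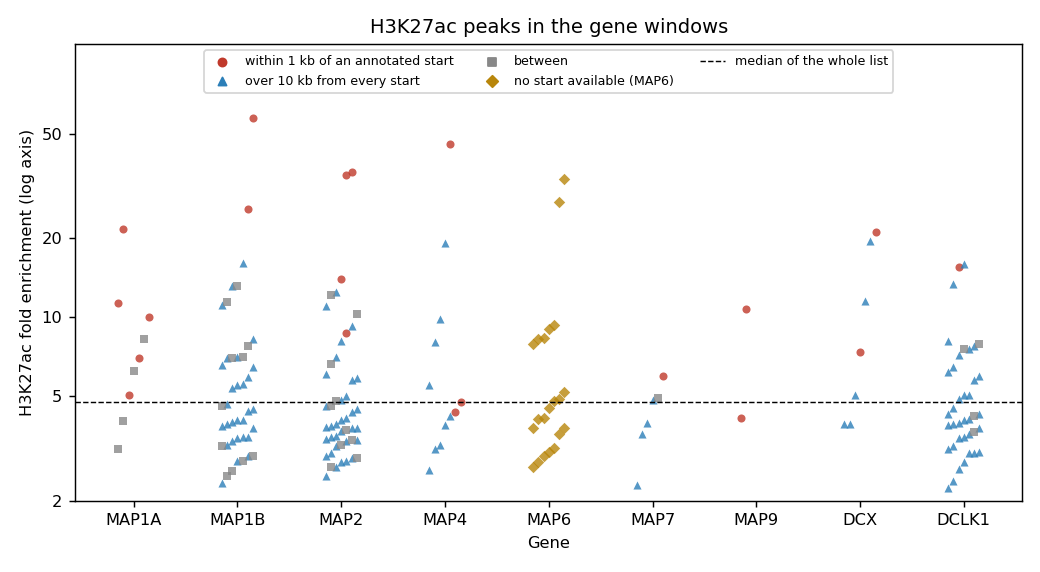
Fold enrichment of every H3K27ac peak (points, log axis) in the window of each gene, with the median of the whole list as a dashed line. The highest points belong to MAP1B (57.3) and MAP4 (45.9), whereas no point of MAP7 exceeds 5.96.

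The number of H3K27ac peaks differed more than their height. The windows of MAP2, MAP1B and DCLK1 held 48, 42 and 39 peaks, more than at least 99.5% of protein-coding genes. MAP6 held 21, MAP4 held 12, MAP1A held 9, DCX held 7, MAP7 held 6 and MAP9 held 2. Long windows can hold more peaks, so the number was also taken per 100 kb. The density was 34.4 peaks per 100 kb in MAP1B, above 98.9% of protein-coding genes, 22.1 in MAP1A and 20.6 in MAP6. It was 14.5 in MAP2, 10.2 in DCLK1, 5.06 in DCX, 4.65 in MAP4, 3.68 in MAP9 and 2.64 in MAP7. The median over all protein-coding genes was 3.95, which all of these exceeded except MAP9 and MAP7. Over those with windows at least as long as that of MAP1A it was 3.43, which MAP9 exceeded and MAP7 did not. H3K27ac peaks covered 22.7% of the MAP1B window, 21.4% of that of MAP1A and 16.2% of that of MAP6, but 0.75% of that of MAP7. Of the 9 peaks in the MAP1A window, 4 overlapped TP53BP1, and they count in both its density and its coverage.

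**Figure D2:**
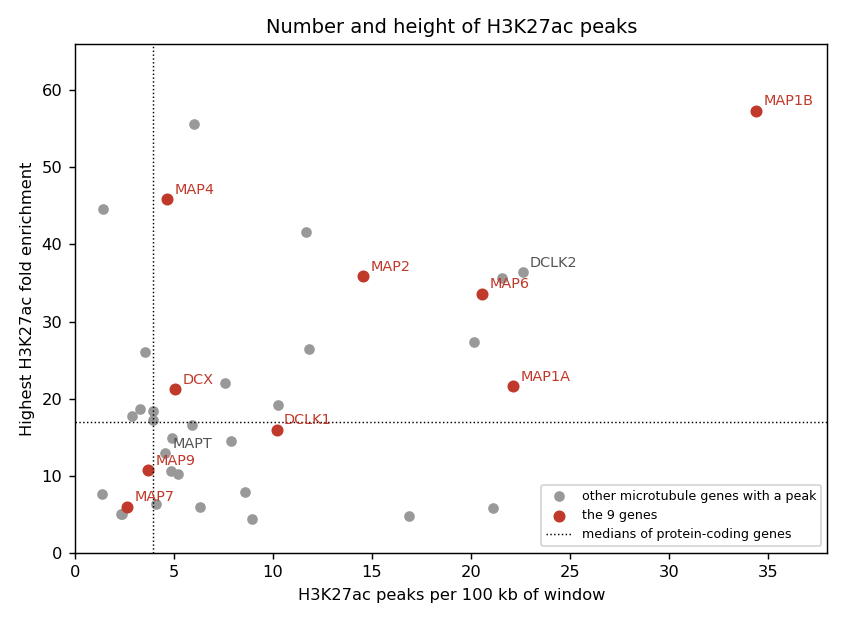
Number of H3K27ac peaks per 100 kb (x axis) and highest fold enrichment (y axis) for the 9 genes in red and for other microtubule genes in grey, with the medians of protein-coding genes as dotted lines. MAP1B stands at the upper right with 34.4 peaks per 100 kb, and MAP7 at the lower left with 2.64.

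Most of the listed peaks were weak. The median fold enrichment over the 186 peaks was 4.43, and over the whole list it was 4.74. Of the 186 peaks, 13 exceeded a q-value of 0.05 (6.99%, against 6.92% of the list). A row of close intervals can also be 1 broad domain that the peak caller divided, and the settings of the caller are not given in the sources used here.

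MAP1B encodes a large protein of growing axons. Its strongest H3K27ac peak ran from 72106426 to 72110091 on chromosome 5, was 3.67 kb wide and covered the outermost start at 72107475, whose promoter is shown above. A second annotated start lay 72.3 kb further into the gene and was covered by a peak from 72177846 to 72180702 with a fold enrichment of 25.96. Between these lay a series of weaker peaks. The strongest more than 10 kb from both starts ran from 72165783 to 72167670 and had a fold enrichment of 16.1, and 29 of the 42 peaks lay more than 10 kb from a start. The 300 bases around the outer start had a GC content of 70%, 3 GC boxes and a TATA box whose first base lay 172 bp before the start. At the inner start the TATA box began 30 bp before it, and the GC content was 57.7%. MAP1B had the highest H3K27ac value of the 9 genes, and its highest CTCF value was the lowest of the 9. Its 2 CTCF peaks had signal values of 38.3 and 27.2, at percentiles 19.4 and 8.7 of the CTCF list. Both were of the width of 800 bp that recurs in that list.

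MAP1A, the related protein of mature dendrites, occupies only 20.7 kb on chromosome 15 (43510954 to 43531611). Its strongest H3K27ac peak, from 43508015 to 43510854 with a fold enrichment of 21.6, ended before the gene and overlapped the neighbouring TP53BP1. The 4 peaks of the window that overlapped TP53BP1 cannot be assigned to either gene from position alone. Inside MAP1A, the highest value was 11.3, in a peak from 43517625 to 43519285 whose summit lay 171 bp after the inner start at 43517608. A peak just before this start had a fold enrichment of 9.99. The 3 CTCF peaks of the window lay 668 bp before the outer start (signal value 82.2), 800 bp after it (118) and 3.7 kb after it (191), and each overlapped an H3K27ac peak.

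MAP2 encodes the dendritic protein used to stain neurons, and its long gene on chromosome 2 (209424047 to 209734112) has several annotated starts. The weakest H3K27ac of these was at the outermost start, where the peak from 209424062 to 209426201 had a fold enrichment of 13.99. A pair of inner starts 155 kb away, at 209579332 and 209579607, lay under a single peak from 209577592 to 209581558 with a fold enrichment of 35.9, the widest of the 9 genes at 3.97 kb. Another start, at 209661496, lay under a peak from 209660757 to 209662418 with a fold enrichment of 34.97. The strongest CTCF peaks lay at the other end of the gene. The peak from 209423606 to 209424258 covered the outermost start with a signal value of 262, the highest of all 31. The one from 209425425 to 209425891, 1.6 kb past that start, had 216. The first interval was listed a second time with another summit and a signal value of 10.5. No CTCF peak was listed within 1 kb of the 3 inner starts.

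MAP6 encodes a protein known for keeping microtubules stable in the cold. It was not in the promoter table, so no strand was used, and its peaks are placed from the ends of its interval on chromosome 11 (75586918 to 75669038). The strongest H3K27ac peak, from 75666792 to 75669596 with a fold enrichment of 33.6, had its summit 190 bp inside the higher-coordinate end. A CTCF peak with a signal value of 52.0 had its summit 44 bp inside the same end. A second strong H3K27ac peak, from 75582774 to 75584766 with a fold enrichment of 27.5, lay outside the gene, 85.4 kb from the higher-coordinate end, and overlapped no protein-coding gene. It also overlapped a CTCF peak, with a signal value of 123. The strongest CTCF peak of the window (163) lay inside the gene, 71.2 kb from that end, without H3K27ac.

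**Figure D3:**
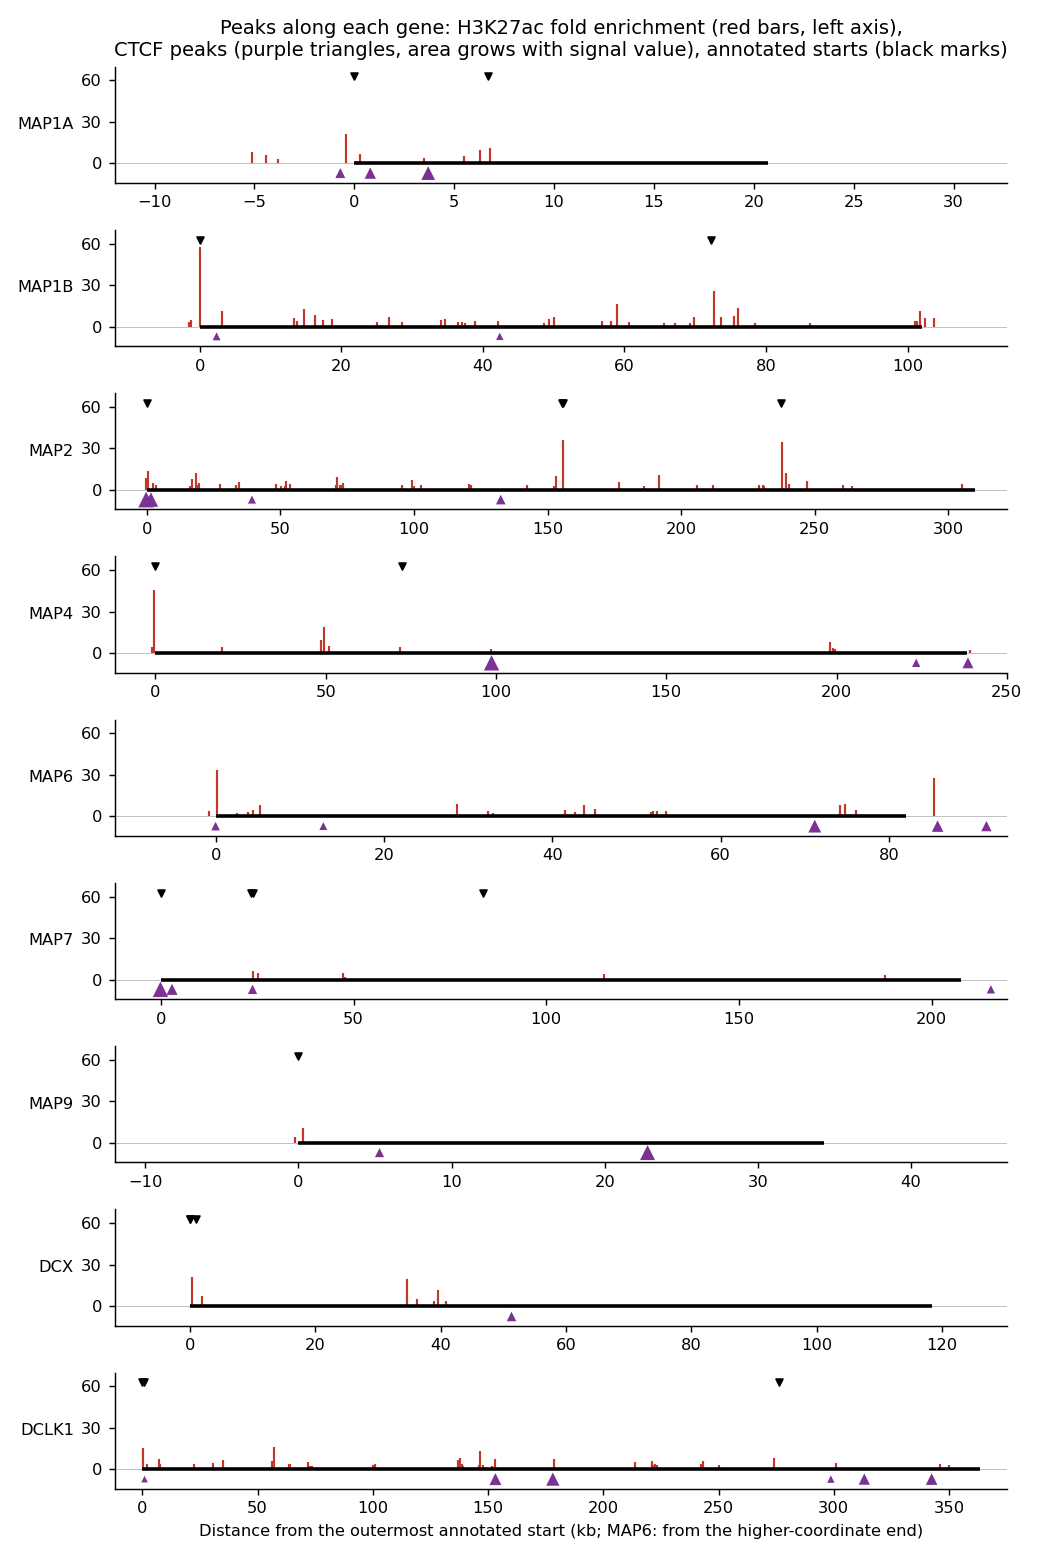
Peaks along each gene by distance from the outermost annotated start (x axis, kb; MAP6 from its higher-coordinate end), with bar height as H3K27ac fold enrichment, triangles for CTCF peaks and black marks for annotated starts. In MAP2 the tall bars stand at the inner starts, at 155 and 237 kb, and the largest triangles stand at the outermost start.

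The doublecortin family binds microtubules through tandem doublecortin domains. DCX, on the X chromosome, is a marker of migrating and newly formed neurons. Its 7 H3K27ac peaks fell into 2 groups. The first was at the starts, where the peak from 111410706 to 111412170 had a fold enrichment of 21.2. The second lay inside the gene, 34.6 to 40.8 kb from the outermost start, and its strongest peak, from 111376101 to 111378167, reached 19.5. The strongest peak over 10 kb from a start was thus nearly as high as the one at the starts, with a ratio of start to distant peak of 1.09. The 300 bases around the outermost start, whose promoter is shown above, had a GC content of 43.0% and an observed to expected CpG ratio of 0.14. DCX had a single CTCF peak, 51.2 kb from the outermost start, with a signal value of 72.2 and no overlap with H3K27ac.

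DCLK1 encodes a doublecortin domain joined to a protein kinase, and is the longest of the genes at 363 kb (chromosome 13, 35768652 to 36131939). Its 39 H3K27ac peaks were spread along the gene, and 34 of them lay more than 10 kb from a start. The strongest was such a distant peak, from 36074048 to 36075446 with a fold enrichment of 15.97, 57.3 kb from the outermost start. The peak at the outer starts, from 36129967 to 36131941, had 15.5, and the ratio of start to distant peak was 0.972. No H3K27ac peak was listed within 1 kb of the inner start at 35855667. Of its 6 CTCF peaks the strongest had a signal value of 175 and lay 178.1 kb from the outermost start, next to an H3K27ac summit 280 bp away with a fold enrichment of 7.60. A very weak CTCF peak near the outer starts (13.9, percentile 2.1) had a q-value above 0.05.

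MAP4, MAP7 and MAP9 are also made outside the nervous system. MAP4 is the major microtubule-associated protein of many other tissues, MAP7 (ensconsin) recruits the motor kinesin-1, and MAP9 is known from the mitotic spindle. At MAP4 the peak over the outermost start, from 48086887 to 48089537 on chromosome 3, had a fold enrichment of 45.9. The 300 bases around that start had a GC content of 75.0% and 3 GC boxes. Inside the gene, 49.4 kb from that start, a peak from 48038443 to 48039916 reached 19.2. None of the 3 CTCF peaks of MAP4 overlapped H3K27ac. The strongest, with a signal value of 249.97, had its summit 291 bp from that of a weak H3K27ac peak of 3.27.

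MAP7 had the lowest H3K27ac of the 9 genes in height and density, and the second highest CTCF value, after MAP2. At its outermost start, at 136550422 on chromosome 6, no H3K27ac peak was listed within 1 kb. A CTCF peak from 136550291 to 136550930 covered that start with a signal value of 250.2, at percentile 88.9. A CTCF peak without an H3K27ac peak within 1 kb of the outermost start was found at 4.21% of 15843 protein-coding genes with a strand. The 300 bases around it had a GC content of 76.3%, higher than 90.4% of promoters. The loose CTCF match on the gene strand, CCGCGAGGGGGC, begins 163 bp before the start, and the CTCF summit lay 15 bp from its middle. The loose form was matched at 1 other of the 20 starts, the inner DCLK1 start at 35855667, and that match lay in no CTCF peak. The only H3K27ac peak near an annotated start was at the inner start at 136526582, with a fold enrichment of 5.96, and it overlapped a CTCF peak of 65.9 whose summit lay 21 bp before that start.

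MAP9 had 2 H3K27ac peaks, with fold enrichments of 10.7 and 4.14, on either side of its single annotated start at 155376965 on chromosome 4. They left a gap over the start itself. Its 2 CTCF peaks lay inside the gene, 22.8 kb and 5.3 kb from the start. The more distant one had a signal value of 235 and the other 61.9, and no H3K27ac peak overlapped them.

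At the level of starts, 8 of the 8 genes with a strand had an H3K27ac peak within 1 kb of at least 1 annotated start, and 66.7% of protein-coding genes with a strand did. At the outermost start alone the number was 7 of 8, MAP7 being the exception, against 62.7%. For CTCF, MAP1A, MAP2, MAP7 and DCLK1 had a peak within 1 kb of a start (4 of 8), against 36.7%. All 4 also had H3K27ac within 1 kb of a start, and 32.4% of protein-coding genes had both. With q under 0.05 the number with CTCF was 3, because the DCLK1 peak was lost. A gene with more annotated starts has more chances of a peak near one. The 8 genes had 21 starts, and the background shares were not matched for this. Where a gene had peaks of both kinds, the strongest H3K27ac peak within 1 kb of a start exceeded the strongest one over 10 kb away in 5 of 6 genes, and in 67.4% of 5432 protein-coding genes. The ratio was 3.57 in MAP1B, 2.87 in MAP2, 2.39 in MAP4 and 1.23 in MAP7, besides those of DCX and DCLK1 given above. In the 6 genes with a strand and a window of at least 100 kb, 115 of 154 peaks (74.7%) lay over 10 kb from every start, against 68.8% in all such windows. DCLK1 had the highest share, 87.2%, and the others ran from 66.7% in MAP7 to 75% in MAP4.

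H3K27ac was listed at most starts of these genes at either base composition. The 300 bases around 8 of the 20 starts had a GC content under 50%, and 7 of these 8 had an H3K27ac peak within 1 kb. Of the 12 starts with a GC content of at least 50%, 10 had one. In the table as a whole, 27.7% of the 4346 starts with a GC content under 50% had such a peak, against 72.4% of the remaining 17853. The 8 starts belong to MAP2, MAP4, MAP7 and DCX, and the 3 DCX starts share the peak of 21.2, so they are not independent. At MAP2, windows with GC contents of 40.0% and 45.3% lay at peaks of 35.9 and 34.97. The first of these peaks also covered the start at 209579607, 2 bp from its summit, whose window had a GC content of 52.3%. In MAP4 and MAP7, by contrast, the low-GC starts had values of at most 5.96 or no peak. The MAP7 start with a GC content of 36% was not itself covered by the peak of 5.96. That peak covered the MAP7 start at 136526582, whose window had a GC content of 55.3%.

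**Figure D4:**
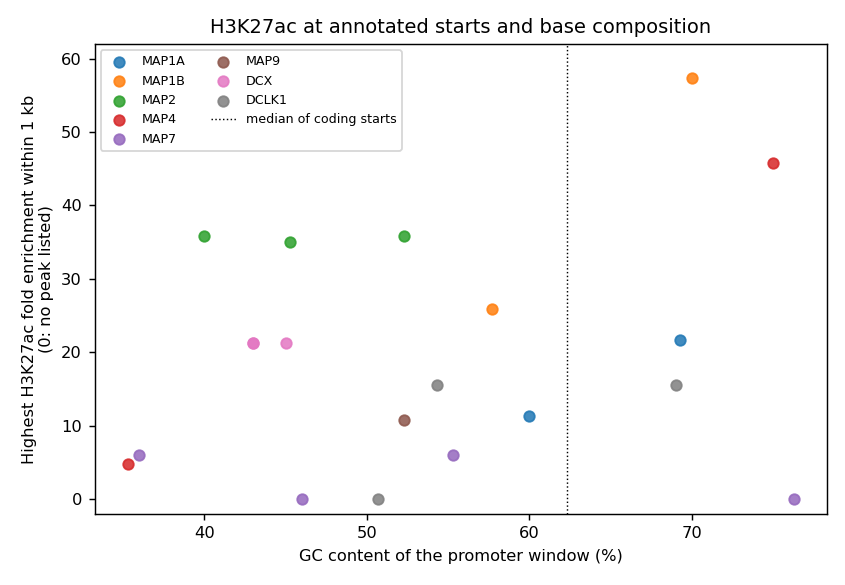
GC content of the 300-base promoter window (x axis) and highest H3K27ac fold enrichment within 1 kb (y axis, 0 where no peak was listed) for the 20 annotated starts of 8 genes, with the median GC content of coding starts (62.3%) as a dotted line. MAP2 and DCX starts lie high at low GC content, and the outermost MAP7 start lies at 0 at 76.3%.

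A CTCF peak lay in the windows of all 9 genes, and in 75.0% of all protein-coding gene windows or 84.2% of those at least as long as that of MAP1A. The highest signal value per gene ran from 38.3 in MAP1B through 72.2 in DCX, 163 in MAP6, 175 in DCLK1 and 191 in MAP1A to 235 in MAP9, 249.97 in MAP4, 250.2 in MAP7 and 262 in MAP2. The last 3 lay close together, at percentiles between 88.8 and 90.7. Their median was 191, and that of all protein-coding genes with a CTCF peak was 182. The median density of CTCF peaks was 1.64 per 100 kb, against 2.53 over protein-coding genes and 2.03 over those with windows at least as long as that of MAP1A. Of the 31 peaks, 8 (25.8%) had the recurrent width of 800 bp, which 33.4% of the list has. Of the 31, 14 overlapped an H3K27ac peak (45.2%, 95% Wilson interval 29.2 to 62.2%, which covers counting error only), against 28.1% of the whole list and 34.1% of the CTCF peaks in protein-coding gene windows. These peaks are not independent, since peaks of the same gene share their surroundings and 2 of them are the same MAP2 interval. With that interval counted once, the share was 13 of 30 (43.3%, Wilson interval 27.4 to 60.8%), and both background shares lie inside this Wilson interval. The 28.1% of the whole list lies just below the first Wilson interval. Both treat the peaks as independent, so they are no test, and no difference from the list is shown. The 14 peaks belonged to MAP1A (3 of 3), MAP1B (2 of 2), MAP2 (3 of 5), MAP6 (2 of 5), MAP7 (1 of 4) and DCLK1 (3 of 6), and none to MAP4, MAP9 or DCX.

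**Figure D5:**
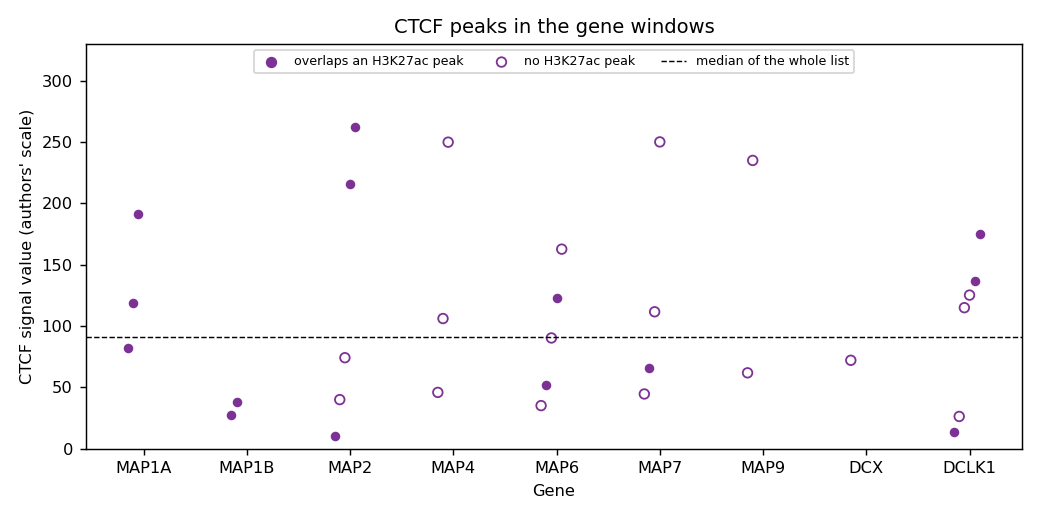
CTCF signal value of every peak in the window of each gene (authors' scale), filled where it overlaps an H3K27ac peak, with the median of the whole list as a dashed line. Both MAP1B points lie below 50, and the MAP4, MAP9 and DCX points are all open.

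Other genes of the microtubule system were described from a list of 30, which holds tau, relatives of the 9 genes, plus-end and minus-end binding proteins and severing enzymes. An H3K27ac peak lay in the windows of 29 of the 30 and a CTCF peak in those of 25, shares to be read against the 76.9% and 75.0% above. The gene without H3K27ac was DCLK3, another doublecortin-like kinase. The highest fold enrichments were 55.6 in CLASP1 and 41.6 in CLIP1, which act at growing microtubule plus ends, and 44.6 in CAMSAP2, which binds minus ends. The list's median highest fold enrichment was 16.6, and its median density was 5.54 peaks per 100 kb, against 10.2 in the 9 genes. DCLK2, the closest relative of DCLK1, held 45 H3K27ac peaks at 22.6 per 100 kb with a highest value of 36.4. The genes most like the 9 over 4 percentiles (height and density of either mark, ranked among protein-coding genes) were CLIP2, with a mean difference of 6.6 percentile points from their medians, CAMSAP1 with 8.8, and DCLK2 and MAPRE2, equal at this rounding, with 10.3 each. This likeness rests on single pooled lists.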

How the data were processed

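ChIP-seq libraries of CTCF, H3K27ac and input (2 each) were grouped by their titles. The deposited files were 1 peak list per antibody, covering both replicates. The CTCF list holds the authors' signal value on a scale that is not stated. The deposited H3K27ac column 7 was read as a fold enrichment (ratio) from its layout and values. Both deposited lists also hold −log10 q values and a score of the authors' pipeline, which was not used. The build hg38 and cutadapt 1.16 are named per the submitters' processing notes. Aligner, peak caller and duplicate removal are not given in the sources used here. The number of other per-sample columns was 0, and input values were not analysed here.

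Gene intervals, strands and promoters came from RefSeq on GRCh38.p14. Overlap meant at least 1 bp. Starts were those of the promoter table plus the interval's outermost end on the strand's start side. The 8 genes in that table had 20 starts, and 21 with the outermost start of MAP2. Positions are 1-based. Rows were joined with Python 3.11.15 and pandas 2.3.3, and the overlap code was tested on simulated intervals. The named genes were all 9 members, with the strongest peak of each list in the window, near a start and over 10 kb away. The other microtubule genes named were the 3 highest, those without H3K27ac and those most alike. Other peaks described, and the labels of tau and DCLK2 in a plot, were chosen after their values were seen. Members and lists were chosen with earlier results of these data known. Since the lists pool replicates, no test between groups was possible. Percentages beside counts are backgrounds, not tests. The alternatives changed window size, list stringency, overlap rule, CTCF widths and start definition.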

Additional observations from a re-analysis of the deposited data

How the results depend on the processing

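No paired analysis was possible because the replicates of an antibody share 1 list, and for that reason no replicate could be left out. Of 74 alternatives, 63 stayed within 1.5 times the count, within the interval of the share or at the same median, and 11 moved. The 50% of peaks with the highest values left 85 of 186 H3K27ac peaks and 15 of 31 CTCF peaks, and gave a median highest CTCF value of 235 against 191. Windows extended by 50 kb gave 47 CTCF peaks and median highest values of 33.6 (H3K27ac) and 250 (CTCF). The median H3K27ac value of 21.6 was 21.2 without any extension, and also 21.2 without peaks that overlap another coding gene, an alternative added after seeing the data along with those on the starts used. Without the CTCF peaks of 800 bp the median highest CTCF value was 213, over 8 genes. With 45.2% of these CTCF peaks overlapping H3K27ac by any base, the share was 29.0% when the CTCF summit itself had to lie in an H3K27ac interval. It was 9.68% when only 100 bp on either side of the summits of both lists were used. Apart from the narrower or wider selection that each alternative makes, the cause was not tested. Depth is unknown, so a gene or start without a listed peak is not shown to lack the mark.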
